A study of Mus musculus with 27 samples.

Results

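The cluster histone genes are the genes that encode the bulk of the core histones and the linker histones, and they were taken here as every gene whose symbol begins with Hist1h, Hist2h, Hist3h or Hist4h in the siRNA and inhibitor tables. These symbols name 69 of the 24258 genes listed there. The Hist1 cluster on chromosome 13 holds 55 of them, the Hist2 cluster on chromosome 3 holds 10, the Hist3 cluster on chromosome 11 holds 3 and Hist4 on chromosome 6 holds 1. By protein, 6 encode the linker histone H1, 19 encode H2A, 19 encode H2B, 12 encode H3 and 13 encode H4. Their RNA was measured in immortalized mouse embryonic fibroblasts (iMEFs) that carry a conditional knockout (cKO) allele of Setdb1, a histone H3 lysine 9 methyltransferase.

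All libraries came from these Setdb1 cKO iMEFs, in which 4-hydroxytamoxifen (4OHT) triggers deletion of the gene. The total RNA experiment compared untreated cells, cells at day 5 after the start of a 4-day 4OHT treatment, and long-term knockout (KO) cells kept for more than 2 weeks after 4OHT, with 3 libraries a group. The siRNA experiment compared control siRNA (siCtrl) with siRNA against Dnmt1, the maintenance DNA methyltransferase (siDnmt1), each without 4OHT or at day 6 of 4OHT, with 2 libraries a group. The inhibitor experiment compared untreated cells with cells given 150 nM trichostatin A (TSA, a histone deacetylase inhibitor) for 24 h, 1 µM PD0325901 (a MEK inhibitor) for 24 h, 4OHT (day 6), or 4OHT with PD0325901, again with 2 libraries a group. Ribosomal RNA was removed from the total RNA with Ribo-Zero. The siRNA and inhibitor libraries were made with a TruSeq RNA kit, whose usual protocol selects polyadenylated RNA, although the labels do not state the selection. In the study's text the siRNA libraries are called mRNA-seq and mRNA is said to have been isolated for them, with no method of selection named. The iMEFs are an immortalized line under inducible deletion, and the labels do not say whether the replicates of a group were separate cultures, so the p-values measure only the spread between these libraries.

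Most cluster histone genes are transcribed when DNA is replicated, as histones are needed to package the new strands. Their messenger RNAs are the known exception among metazoan mRNAs in ending not in a poly(A) tail but in a short stem-loop, which is bound by the protein Slbp and cut through the U7 small nuclear ribonucleoprotein. Some cluster genes also have longer, polyadenylated transcripts that read past the stem-loop. The library type therefore decides which form of the RNA is seen, and the 3 experiments are reported apart.

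The stem-loop was written out for the genes on which the results turn, because it is the end that separates these RNAs from polyadenylated ones. In the mm9 genome, the letters GGNNCTT, then any 3 bases, then AGNNCC (N stands for any base) were searched for on the sense strand within 100 bases after each annotated stop codon. This motif was found in 63 of 67 histone genes with an annotated stop codon (94.0%) and in 18 of 21863 other protein-coding genes (0.0823%), 1 of which is H2afx, the gene of the H2A variant H2A.X. It began 22 to 59 bases after the stop codon, with a median of 31. The exact letters were not found in Hist2h2bb, Hist2h2be, Hist1h2an and Hist1h2al. In the lines below, the genomic DNA of the sense strand is given 5′ to 3′, and the capitals mark the 16 bases of the motif:
Hist1h1a: ccaacGGCTCTTTTCAGAGCCaccaa
Hist3h2a: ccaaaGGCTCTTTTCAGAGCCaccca
Hist3h2ba: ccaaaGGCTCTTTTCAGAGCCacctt
Hist1h2bc: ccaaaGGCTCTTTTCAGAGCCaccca
Hist1h4i: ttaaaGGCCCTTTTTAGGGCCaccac
Hist1h1c: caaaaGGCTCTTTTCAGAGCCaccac
Hist2h3b: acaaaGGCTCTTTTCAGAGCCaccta
They lie at chr13:23856256-23856281 (+) for Hist1h1a, chr11:58768669-58768694 (+) for Hist3h2a, chr11:58762846-58762871 (+) for Hist3h2ba, chr13:23776511-23776536 (+) for Hist1h2bc, chr13:22132830-22132855 (-) for Hist1h4i, chr13:23831376-23831401 (+) for Hist1h1c and chr3:96073053-96073078 (+) for Hist2h3b. The core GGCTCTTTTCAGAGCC was shared by 39 of the 63 genes (61.9%), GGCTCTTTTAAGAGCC by 9 and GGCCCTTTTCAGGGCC by 8, and all 8 of the last are H4 genes. The Hist1h4i core, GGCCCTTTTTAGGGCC, was found in 2 genes. These matches are descriptions of the reference sequence.

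The deposited unit is FPKM (fragments scaled to transcript length and to the mapped fragments of the library), which is a level per length. In total RNA the histone genes were among densely packed loci that the authors' assembly often joined, so 68 of the 69 genes fell into 44 loci, 30 of them with 1 histone gene and 14 joined. No locus was matched to Hist1h2al. In the siRNA tables the genes formed 64 loci and 63 in the inhibitor tables. Nearly identical copies (Hist1h2ao and Hist1h2ap, Hist1h2bq and Hist1h2br, Hist1h4m and Hist1h4n, Hist2h2aa1 and Hist2h2aa2, Hist2h3c1 and Hist2h3c2) could not be told apart and were summed. A locus was tested where the number of libraries at 1 FPKM or above was no lower than the size of the smallest group, which left 41 loci (64 genes) in total RNA, 48 (53 genes) in the siRNA libraries and 51 (57 genes) in the inhibitor libraries. The loci that passed reached 1 FPKM in enough libraries of any group and are not all members. A locus could pass through treated libraries alone. Hist2h2be and Hist1h1a did so through TSA in the inhibitor libraries. Hist1h1b did so through 4OHT + siDnmt1 in the siRNA libraries.

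Depth was estimated from the FPKM confidence intervals of the libraries, at 37.5 to 43.1 M (mega) fragments in total RNA, 14.1 to 16.0 M in the siRNA libraries and 11.2 to 13.1 M in the inhibitor libraries. Dnmt1 read 80.5 and 73.4 FPKM with siCtrl against 12.2 and 10.6 with siDnmt1, and 78.7 and 78.3 against 12.2 and 11.4 under 4OHT, so the knockdown was seen in every library. Setdb1 read 5.95, 5.53 and 5.16 FPKM in the untreated total RNA libraries, 4.16, 4.2 and 6.52 at day 5 and 7.24, 7.32 and 6.96 in those labelled long-term KO. These values cover the whole locus rather than the deleted stretch, so they do not check the deletion, and the groups are named by their labels throughout. In the inhibitor tables the second library labelled PD0325901 carries a column name of a 4OHT + PD0325901 library. The label was followed, and the counts of called histone loci that use it are also given without it. Companion genes were not refitted without it. Fibroblast markers were present (4 of 5 measured markers at 10 FPKM or more in every total RNA library), and 5 of 7 markers of blood, epithelial, endothelial and pluripotent cells stayed under 1 FPKM in total RNA. Levels of the fibroblast markers moved with the groups. The collagen gene Col3a1 read 243 to 260 FPKM in untreated total RNA libraries, 86.5 to 94.0 at day 5 and 233 to 248 in long-term KO cells, and the receptor gene Pdgfrb read 4.76 to 5.13 FPKM in untreated cells and 34.9 to 35.7 in long-term KO cells. In the inhibitor libraries Col3a1 read 302 and 308 FPKM in untreated cells, 35.0 and 18.8 with TSA and 19.4 and 26.1 with 4OHT. The part of these shifts in the histone values was not tested.

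Levels of the histone genes lay far apart between the library types. In total RNA the median locus had a mean of 472 FPKM, and 37 of 44 loci were at 100 FPKM or more. In the siRNA libraries the median was 1.37 FPKM and in the inhibitor libraries 1.29 FPKM, and in each of these 3 loci reached 10 FPKM and none reached 100. Untreated cells alone had a mean summed histone level of 31350 FPKM in total RNA (n = 3) and 114.2 FPKM in the inhibitor libraries (n = 2). The experiments also differ in depth and were prepared apart, so library type cannot be told apart from these. No test was made across them.

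**Figure D1:**
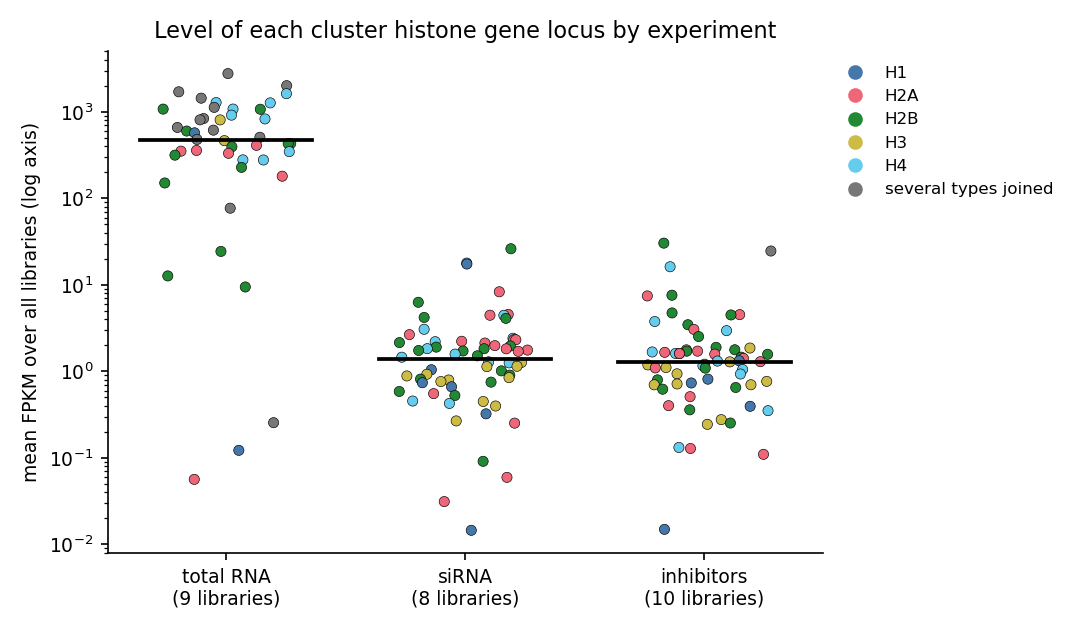
Mean FPKM of each histone locus over all libraries of an experiment (log axis), coloured by histone type, with a bar at the median. The total RNA loci lie around a median of 472 FPKM and the siRNA and inhibitor loci around 1.37 and 1.29 FPKM; Hist1h2aa, listed at 0 in every siRNA and inhibitor library, is left out of those 2 columns.

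The joined locus of Hist1h2ao, Hist1h2ap, Hist1h4m and Hist1h4n stood highest in total RNA, at 2769 ± 304 FPKM (mean ± SD over the 9 libraries of all groups). The joined locus of Hist1h1c, Hist1h1d, Hist1h2ab, Hist1h2bb and Hist1h3b followed at 2008 ± 301 FPKM, then the Hist2 locus of Hist2h2aa1, Hist2h2aa2, Hist2h2ac, Hist2h3c1 and Hist2h3c2 at 1705 ± 219 FPKM and Hist1h4d, an H4 gene, at 1622 ± 315 FPKM. Their ranges over the libraries, 2298 to 3155, 1581 to 2366, 1396 to 1971 and 1231 to 2025 FPKM, overlapped between neighbours in this order. A joined locus is given as the sum of its listed rows, so this order reflects how loci were joined and does not rank single genes. Among loci of 1 gene, the median level was 916 FPKM for 9 H4 loci, 395 FPKM for 11 H2B loci and 341 FPKM for 6 H2A loci. At the other end, Hist1h1t and Hist1h2aa, whose products are testis forms of H1 and H2A, had means of 0.122 and 0.0564 FPKM. Hist1h2ba, the testis form of H2B, read between 7.58 and 11.1 FPKM in total RNA, well below the other Hist1 H2B genes.

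In the siRNA and inhibitor libraries the highest members were the H2B gene Hist1h2bc, the H4 gene Hist1h4i and the linker histone gene Hist1h1c. Hist1h2bc averaged 26.1 FPKM in the siRNA libraries and 30.4 FPKM in the inhibitor libraries. Hist1h4i averaged 17.8 and 16.2 FPKM. Hist1h1c averaged 17.4 FPKM in the siRNA libraries and 24.6 FPKM, summed with Hist1h2bb, in the inhibitor libraries. Next came the H2B gene Hist1h2bg, at 6.29 and 7.59 FPKM, and Hist3h2a, at 8.32 FPKM summed with its neighbour Trim17 in the siRNA libraries and 7.44 FPKM in the inhibitor libraries. Hist1h2bc was not a leading gene in total RNA, where it read 316 ± 39.9 FPKM (n = 9) and ranked 32 of 44 loci, with joined loci taken as sums. Among the 11 H2B loci of 1 gene in total RNA the median was 395 FPKM.

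Where the listed loci end was also read. In the 3 total RNA libraries in which Hist1h1c stood alone, its locus ended 44 bases past the stop codon, just past the stem-loop. In all 8 siRNA libraries it ended 843 to 975 bases past the stop codon, and in the 9 inhibitor libraries where it stood alone it ended 830 to 985 bases past. Hist3h2a, an H2A gene, ended 62 bases past its stop codon in all 9 total RNA libraries and 784 to 1161 bases past in all 10 inhibitor libraries. In the 7 siRNA libraries where Hist3h2a stood alone the ends ran from 62 to 1145 bases past, with a median of 1028. The listed loci of both genes thus ended near the stem-loop in total RNA and far beyond it in most libraries of the other 2 experiments. In total RNA the end of each gene was the same base in every library where it stood alone. Whether these ends come from the reads or from the gene annotation supplied to the assembly was not tested, so they are not read as measured 3′ ends.

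The stretch up to the farthest Hist1h1c end holds 1 copy of AATAAA, the common polyadenylation signal, and it is shown because it lies near the place where those loci end:
Hist1h1c: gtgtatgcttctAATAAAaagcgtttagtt
It lies at chr13:23832199-23832228 (+) in mm9, 855 bases after the stop codon, with the signal in capitals, while the assembled ends ran from 23832186 to 23832341. No AATAAA was found in the Hist3h2a stretch. Of 21863 other coding genes, 13209 (60.4%) hold an AATAAA on the sense strand in a stretch of the same 985 bases, so the match describes the window only.

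In total RNA, histone transcripts as a group were slightly lower at day 5 of 4OHT than in untreated cells. Summed over all members, the untreated libraries had 31900, 30220 and 31920 FPKM and the day 5 libraries 25430, 25970 and 24660 FPKM. The day 5 libraries all lay below the untreated ones. The median of the 41 tested loci was a log2 fold change of -0.29 against 0.00 for all 8893 genes tested, a ratio of 0.82, and 37 loci lay below 0. Of all genes tested, 50.2% lay above 0. In bulk RNA, a lower level per cell and fewer cells that make the RNA cannot be told apart.

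By the call used here, an adjusted p under 0.05 in limma (Benjamini-Hochberg) with a change of at least 2-fold, no histone locus was called at day 5, whereas 3.41% of all genes were. At an unadjusted p under 0.05 there were 34 of 41, against 46.3% of all genes. With the fold limit left out, 30 of 41 loci fell (73.2%, against 18.5% of all genes tested) and 2 rose (against 19.0%). Under quantile normalization, a setting added after the data were seen, 14 fell and 3 rose and the median was -0.09, while median-ratio scaling gave 30 and 2 with a median of -0.32. The shares of all genes under these scalings are not given, so the counts show only how far the result depends on scaling.

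Lower values were found in all histone types. Among loci of 1 protein type, H2A loci had a median of -0.40 (4 of 5 below 0), H2B loci -0.30 (10 of 12), H3 loci -0.27 (2 of 2) and H4 loci -0.27 (9 of 9), and Hist1h1a, the 1 tested locus of an H1 gene alone, had -0.28. Hist1h4d read 1949, 1602 and 2025 FPKM in untreated cells and 1269, 1332 and 1231 FPKM at day 5, a log2 fold change of -0.53 (SE 0.12, limma adjusted p = 0.0117). The 2 groups did not overlap. The joined Hist1h1c locus went from 2128, 2009 and 2206 to 1633, 1673 and 1581 FPKM (-0.38, SE 0.05, adjusted p = 0.000543), the joined Hist2h2aa1 locus from 1830, 1756 and 1971 to 1447, 1449 and 1396 FPKM (-0.37, adjusted p = 0.0016), and the Hist2h2bb and Hist2h3b locus from 1652, 1593 and 1590 to 1255, 1291 and 1212 FPKM (-0.36, adjusted p = 0.000339). The locus of Hist1h1b, linker histone H1.5, joined with Hist1h3i, had a log2 fold change of -0.29 (SE 0.04, adjusted p = 0.00131). The locus of Hist1h1e and Hist1h2be had -0.12 (adjusted p = 0.598), and there Hist1h2be was listed at 0 in the third untreated library. The 3 Hist3 loci stood apart from this pattern, with log2 fold changes of 0.04, 0.27 and 0.91.

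The joined locus of Hist1h2ae and Hist1h2bf was listed at 0 in untreated library 2 and long-term KO library 3, so its fold changes are not interpreted. Among the 28 tested loci that hold 1 gene and no value of 0, the median at day 5 was -0.28.

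**Figure D2:**
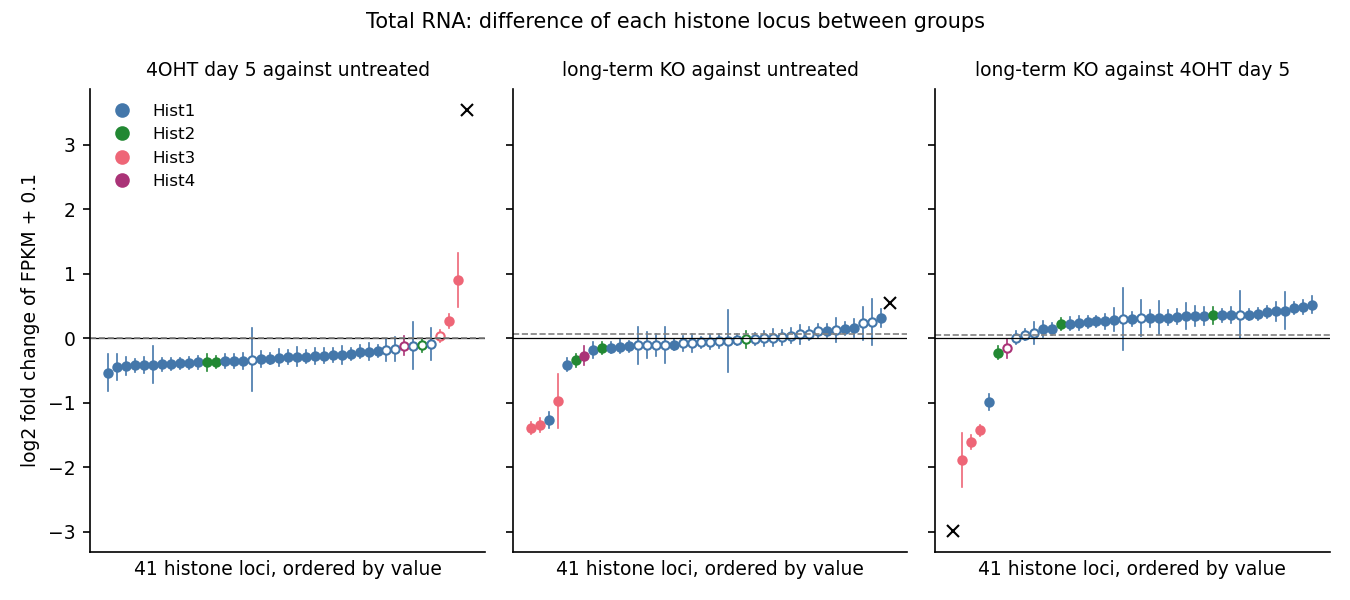
Log2 fold change of FPKM + 0.1 for the 41 tested histone loci in the 3 total RNA comparisons, ordered by value, with 95% confidence intervals. Filled points have a limma adjusted p under 0.05, the dashed line is the median of all genes, and the cross is the joined locus with listed zeros. At day 5 most Hist1 points lie below 0. In both long-term KO panels the Hist3 points and Hist1h1a lie far below the other points, a separation that quantile normalization keeps. The cross is left out of this description, and against day 5 it is the lowest mark, at -2.99.

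In long-term KO cells the histone transcripts as a group were near the untreated level again, while Hist1h1a and the Hist3 cluster were lower. The summed FPKM was 31460, 31280 and 29450 in the libraries labelled long-term KO, which overlaps the untreated range. The median locus had a log2 fold change of -0.05 against untreated cells (all genes 0.07), and this changed sign to 0.17 under quantile normalization. No direction is therefore given for the group. Against day 5 the median was 0.30 (all genes 0.04), and 34 of 41 loci lay above 0, as did 53.1% of all genes. The 2 comparisons share the long-term libraries, and each shares a group with the day 5 comparison.

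Hist1h1a encodes linker histone H1.1 and spans chr13:23855537-23856281 (+). It read 802, 772 and 726 FPKM in untreated cells, 654, 640 and 601 FPKM at day 5 and 326, 323 and 305 FPKM in long-term KO cells. The 3 groups did not overlap. The log2 fold change of long-term KO against untreated cells was -1.27 (SE 0.05, 95% confidence interval -1.39 to -1.15, adjusted p = 3.7e-07), and against day 5 it was -0.99 (adjusted p = 1.49e-06), just under the 2-fold limit. The other tested H1 genes lay in loci joined with genes of other histones, so their own levels were not read. None of these joined loci was lower in long-term KO than in untreated cells. The locus of Hist1h1c, Hist1h1d, Hist1h2ab, Hist1h2bb and Hist1h3b had 0.11 (adjusted p = 0.0626), and that of Hist1h1b and Hist1h3i 0.12 (adjusted p = 0.036). That of Hist1h1e and Hist1h2be had 0.25 (adjusted p = 0.19), with Hist1h2be listed at 0 in the third untreated library. Hist1h1a was the only H1 gene that stood as a locus of its own and was tested.

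The Hist3 cluster spans 3 genes within chr11:58762413-58768694. Hist3h2a, an H2A gene, read 462, 433 and 443 FPKM in untreated cells, 461, 473 and 439 FPKM at day 5 and 169.9, 172 and 168 FPKM in long-term KO cells. The untreated and day 5 values overlapped and the long-term values lay far below both, with log2 fold changes of -1.39 (SE 0.04, adjusted p = 5.08e-08) against untreated cells and -1.43 (adjusted p = 5.84e-08) against day 5. Hist3h2bb-ps, which the annotation lists as a pseudogene of H2B, read 28.9, 27.9 and 27.7 FPKM, then 32.8, 34.5 and 34.3 FPKM, then 11.1, 11.7 and 10.3 FPKM. Its 3 groups did not overlap, and its log2 fold changes were -1.34 (adjusted p = 2.15e-07) and -1.61 (adjusted p = 1.03e-07).

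Hist3h2ba, an H2B gene, was higher at day 5 and lower in long-term KO cells than in untreated cells. It read 11.3, 10.6 and 11.7 FPKM in untreated cells, 20.6, 22.9 and 19.8 FPKM at day 5 and 6.91, 6.33 and 4.07 FPKM in long-term KO cells. The 3 groups did not overlap. The log2 fold change was 0.91 at day 5 (SE 0.18, adjusted p = 0.00562) and -0.98 between long-term KO and untreated cells (adjusted p = 0.0016), both short of 2-fold, and -1.88 between long-term KO and day 5 (adjusted p = 4.07e-05).

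**Figure D3:**
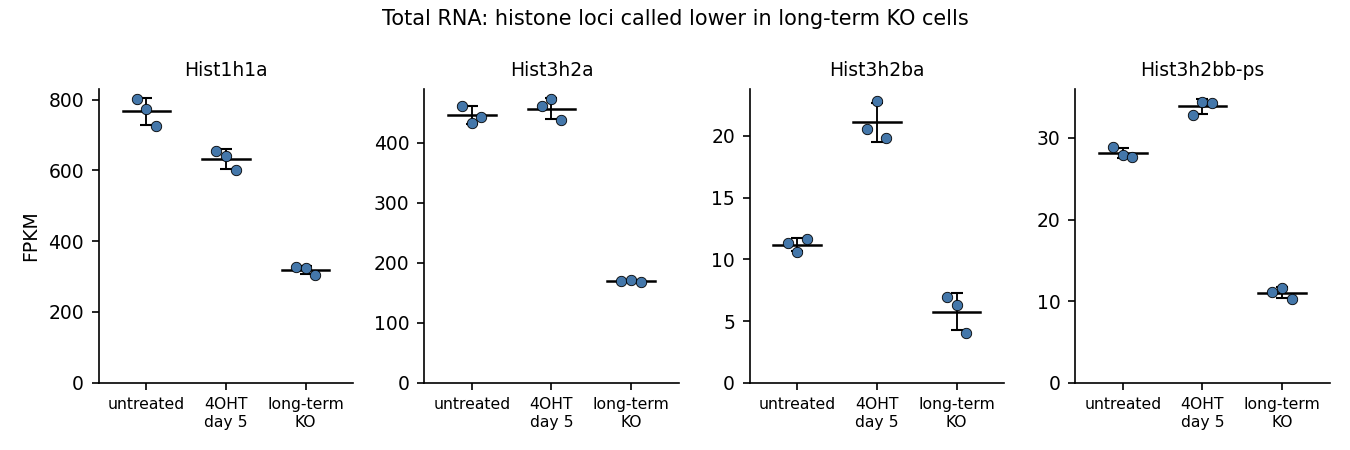
FPKM of Hist1h1a, Hist3h2a, Hist3h2ba and Hist3h2bb-ps in each total RNA library, with the group mean and SD (n = 3). The long-term KO libraries are the lowest in each panel, at 305 to 326 FPKM for Hist1h1a and 168 to 172 FPKM for Hist3h2a, and Hist3h2ba is highest at day 5.

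Against untreated cells 3 of 41 loci were called lower in long-term KO (7.32%, against 6.4% of all genes) and none higher, and against day 5 also 3 were called lower (6.11% of all genes). These shares are close to the background. Of the first 3 loci 2 are in the Hist3 cluster, and of the second all 3 are. All 6 calls held in each of 19 alternative settings. With the fold limit left out, 13 loci fell and 4 rose against untreated cells (29.7% and 38.2% of all genes), but 7 fell and 19 rose under quantile normalization and 18 fell and 1 rose under median-ratio scaling. Against day 5, 28 rose and 5 fell (36.1% and 30.4% of all genes), and 30 and 6 under quantile normalization. The shares of all genes under the other scalings are not given, so those counts cannot be set against a background.

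The neighbours of the Hist3 cluster within 100 kb were read after its values had been seen. Trim11 and Rnf187, which lie on either side of it, had log2 fold changes of -0.51 (SE 0.07, adjusted p = 0.000245) and -0.47 (SE 0.06, adjusted p = 0.000285) between long-term KO and untreated cells, under 2-fold. Zfp39 had 0.03 (adjusted p = 0.73) and 2810021J22Rik had -0.28 (adjusted p = 0.0589). These are smaller in size than the log2 fold changes of the Hist3 genes, and the difference was not tested.

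Genes that act on histone RNA or protein were read from 4 lists. Of 8 tested replacement histone genes, which are expressed outside S phase, 1 was called higher in long-term KO than in untreated cells. This was H1fx, the linker histone H1.10, which read 4.04, 3.75 and 4.88 FPKM in untreated cells and 12.1, 12.2 and 13.4 FPKM in long-term KO cells (log2 fold change 1.56, adjusted p = 4.34e-06), in the direction opposite to Hist1h1a. Of 15 tested genes for histone pre-mRNA processing, none was called. Lsm11, a U7 component, read 2.68, 2.90 and 2.45 FPKM in untreated and 1.69, 1.54 and 1.66 FPKM in long-term KO cells (-0.68, adjusted p = 6.85e-05). Slbp, named for its role as the stem-loop binding protein, had -0.08 at day 5 (adjusted p = 0.185) and 0.18 in long-term KO cells (adjusted p = 0.00715). None of 8 chaperone genes and none of 16 S phase genes was called against untreated cells at either time, and the S phase medians were 0.04 at day 5 and 0.11 in long-term KO cells. Against day 5, H1fx, H2afy2 (macroH2A2, 1.23) and the chaperone gene Rbbp4 (1.10) were called higher in long-term KO cells.

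In the siRNA libraries the histone values rest on few fragments. The confidence intervals imply a median of 5 fragments per histone locus and library, and 75.6% of values rest on fewer than 10. The median SD between replicates was 34.8% of the mean for histone loci against 10.5% for all genes tested, while in total RNA it was 4.09% against 5.64%. Only large differences can therefore be read here. Hist1h2bc rests on 77.8 to 356 implied fragments a library and Hist1h4i on 31 to 93.7. The 4OHT + siCtrl libraries also lay apart from each other, with 87.0 and 20 FPKM of the histone chaperone gene Daxx (20.9 and 21.9 with siCtrl), 61.3 and 156 FPKM of Rbbp4, 299 and 1120 FPKM of the fibroblast marker S100a4 and 31.0 and 99.1 FPKM of Col3a1. Across the groups Col3a1 read 391 and 374 FPKM with siCtrl, 176 and 174 with siDnmt1 and 53.1 and 20 with 4OHT + siDnmt1. The part of these differences in the histone values was not tested.

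Knockdown of Dnmt1 alone went with lower values of most histone loci. The summed FPKM was 148.9 and 161.4 with siCtrl and 104.4 and 109.4 with siDnmt1, and the median log2 fold change was -0.47 against -0.09 for all 10577 genes tested, with 38 of 48 loci below 0. Of all genes tested, 39.6% lay above 0. The median was -0.29 without siCtrl library 2, -0.30 without siDnmt1 library 1 and -0.25 with a pseudocount of 1. By type, the 8 H3 loci had a median of 0.35, with 5 above 0, and 4 of the 10 H4 loci lay above 0. Of 48 loci, 3 were called lower (6.25%, against 2.46% of all genes) and none higher. The H2A gene Hist1h2ac fell from 3.51 and 4.15 to 1.06 and 0.866 FPKM (-1.89, SE 0.33, adjusted p = 0.0256), the H2B gene Hist1h2bh from 2.72 and 1.37 to 0.567 and 0.384 FPKM (-1.84, adjusted p = 0.0462), and the H2A gene Hist1h2ai from 2.80 and 3.33 to 0.99 and 1.26 FPKM (-1.37, adjusted p = 0.0407). None of the 3 pairs of groups overlapped, which describes the values and adds no support to calls made on them. Hist1h2bc read 25.9 and 26.1 FPKM with siCtrl and 13.1 and 9.97 FPKM with siDnmt1 (-1.18, adjusted p = 0.0828), and Hist1h1c 20.8 and 22.4 against 15.9 and 15.6 FPKM (-0.45, adjusted p = 0.146). The calls depended on single libraries: none was left without either siCtrl library or without siDnmt1 library 2, 1 without siDnmt1 library 1, and 7 without either 4OHT + siCtrl library.

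With siCtrl, 4OHT went with 1 call among the histone loci, the higher Hist1h4i, and 34 of 48 loci lay above 0, as did 57.0% of all genes. Hist1h4i, which encodes H4 and lies at chr13:22132829-22133231 (-), read 10.7 and 9.77 FPKM with siCtrl and 23.3 and 18.9 FPKM with 4OHT + siCtrl (1.03, SE 0.20, adjusted p = 0.0253). It was the only one of 48 loci called (2.08%, against 2.58% of all genes called higher), and the median was 0.35 (all genes 0.08). That median was 0.18 without 4OHT + siCtrl library 1, 0.21 without siCtrl library 1 and 0.20 with a pseudocount of 1. It was 0.94 for the 8 H3 loci, 0.67 for the 10 H4 loci and 0.40 for the 15 H2B loci, against -0.11 for the 12 H2A loci and -0.46 for the 3 H1 loci. Hist1h2bc read 47.7 and 23.0 FPKM under 4OHT + siCtrl, which spans the siCtrl values, and had a log2 fold change of 0.35 (adjusted p = 0.501). The Hist1h4i call was lost in 9 of 17 alternatives, among them without either siCtrl library, either siDnmt1 library or 4OHT + siCtrl library 1. The count was then 0 without siCtrl library 1 or either siDnmt1 library and 2 (1 higher, 1 lower) without 4OHT + siCtrl library 1.

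Under Dnmt1 knockdown, 4OHT went with higher values of many histone loci. The summed FPKM was 104.4 and 109.4 with siDnmt1 and 190.7 and 207.5 with 4OHT + siDnmt1. The median log2 fold change was 1.05 (all genes 0.14), and 39 of 48 loci lay above 0, as did 63.0% of all genes. The median was 0.68 without siDnmt1 library 1 and 0.57 with a pseudocount of 1. Median-ratio scaling moved the median of all genes to -0.02 and that of the histone loci to 0.89, with 5 loci called. Of the 48, 9 were called higher (18.8%, against 3.41% of all genes) and none lower. They were 6 H2B genes, 1 H1 gene, 1 H2A gene and 1 H4 gene. The H1 gene, Hist1h1b, entered the test only through the 4OHT + siDnmt1 libraries. This comparison shares the siDnmt1 libraries, in which the histone values were lowest, with the siDnmt1 comparison above.

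Hist1h2bc read 13.1 and 9.97 FPKM with siDnmt1 and 31.8 and 31.6 FPKM with 4OHT + siDnmt1 (1.46, SE 0.33, adjusted p = 0.0385). Hist1h4i read 14.3 and 11.8 against 22.6 and 31.4 FPKM (1.03, adjusted p = 0.0294), and Hist1h2bg, an H2B gene, 3.48 and 2.83 against 6.82 and 8.39 FPKM (1.24, adjusted p = 0.0302). The groups did not overlap for any of them. Hist1h2bh read 0.567 and 0.384 against 3.45 and 2.90 FPKM (2.52, adjusted p = 0.0205), Hist1h2bn, also H2B, 0.266 and 0.813 against 3.24 and 3.80 FPKM (2.64, adjusted p = 0.0306), and Hist1h1b 0.202 and 0.206 against 2.36 and 1.33 FPKM (2.62, adjusted p = 0.0355). Hist1h1b read at most 0.418 FPKM in the other siRNA libraries. It passed the filter only through the group where it was high, so its call is not independent of the filter. Hist1h2ba, the testis H2B, read 0.265 and 0 against 1.08 and 1.45 FPKM (2.82, adjusted p = 0.0458). The H2B gene Hist1h2bb read 0.21 and 0.428 against 2.56 and 1.15 FPKM (2.17, adjusted p = 0.0378). Hist1h2bh, Hist1h2bn, Hist1h1b, Hist1h2ba and Hist1h2bb rested on 0 to 3 implied fragments in each siDnmt1 library, against 12 and 13 for Hist1h2bn with 4OHT + siDnmt1, so the size of these folds is not firm and depends on the constant of 0.1 added before the logarithm. Hist1h2ac rose from 1.06 and 0.866 to 1.94 and 3.50 FPKM (1.35, adjusted p = 0.0474), and with Hist1h2bh it was called in both directions, lower with siDnmt1 and higher when 4OHT was added. Of the other tested H1 genes, Hist1h1c read 14.1 and 19.4 FPKM with 4OHT + siDnmt1 (0.07 against siDnmt1, adjusted p = 0.8), and Hist1h1e read 1.49 and 1.28 FPKM with siCtrl, 0.413 and 0.84 FPKM with siDnmt1 and 1.25 and 1.47 FPKM with 4OHT + siDnmt1.

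**Figure D4:**
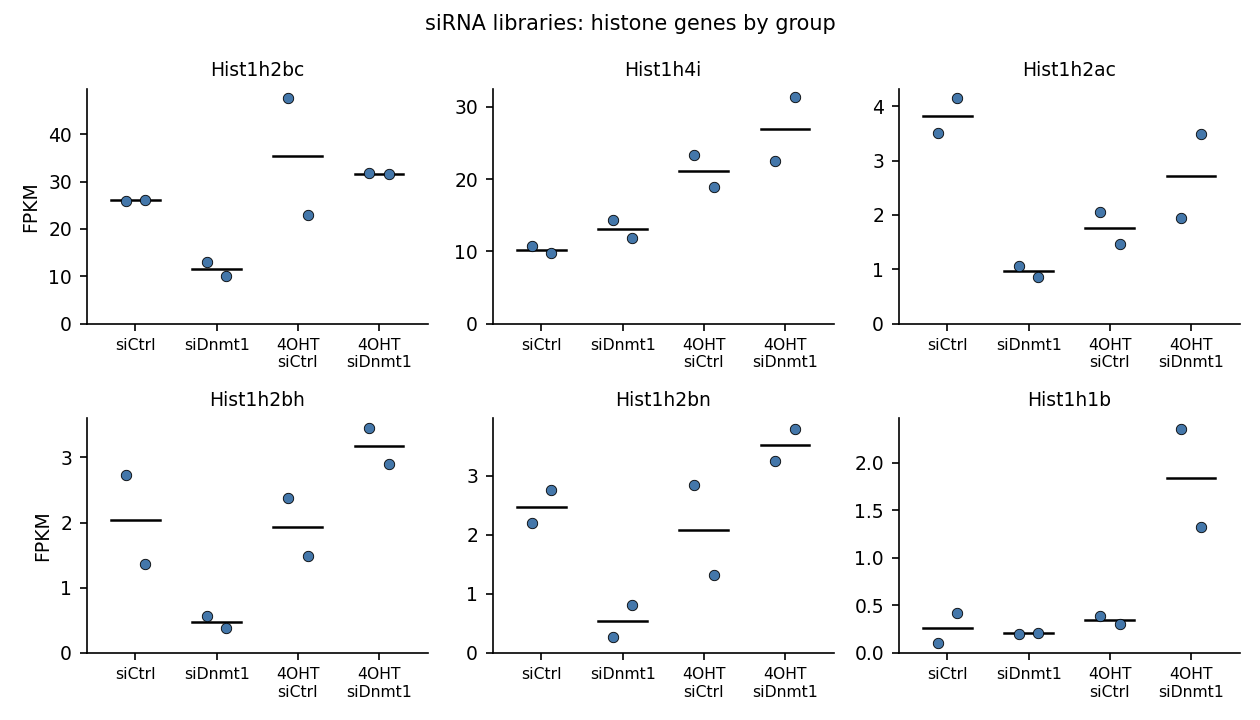
FPKM of 6 histone genes in each siRNA library, with a bar at the mean of the 2 libraries of a group. The siDnmt1 points are the lowest or among the lowest for Hist1h2bc, Hist1h2ac, Hist1h2bh and Hist1h2bn, while Hist1h4i is higher in both 4OHT groups than in both groups without 4OHT.

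The count of 9 was not stable to the choice of libraries. It was 0 without either siDnmt1 library, 1 without any 1 of the siCtrl and 4OHT + siDnmt1 libraries, and 16 without either 4OHT + siCtrl library. Between 4OHT + siDnmt1 and 4OHT + siCtrl no locus was called by limma (1.46% of all genes in either direction), 4 of 48 had an unadjusted p under 0.05 (19.6% of all genes), and the median was 0.04, or 0.37 without 4OHT + siCtrl library 1. The interaction, which asks whether the effect of 4OHT differed with siDnmt1, had no call (0.199% of all genes), 8 loci with an unadjusted p under 0.05 (10.0% of all genes) and a median of 0.56, and 3 calls without 4OHT + siCtrl library 1. A different effect of 4OHT on histone genes with and without siDnmt1 was therefore not shown.

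Companion genes were read from the same lists. H1f0, the replacement linker histone, read 130 and 127 FPKM with siCtrl and 50.0 and 67.9 FPKM with 4OHT + siCtrl (-1.14, adjusted p = 0.0154), and it was the only one of 11 replacement histone genes called there. With siDnmt1 it read 240 and 229 FPKM without 4OHT and 152 and 117 FPKM with it (-0.81, adjusted p = 0.0379). None of 16 processing genes was called in any siRNA comparison. Of 17 S phase genes, 1 was called in any of them, Ccne1, with 1.21 (adjusted p = 0.0309) for 4OHT + siDnmt1 against siDnmt1. None of 10 chaperone genes was called.

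In the inhibitor libraries the histone values were again sparse, with a median of 3 implied fragments, 85.2% of values under 10 and a median replicate SD of 43.1% of the mean (11.9% for all genes). Setdb1, over its whole locus, read 8.76 and 10.1 FPKM in untreated cells, 5.34 and 5.56 FPKM with PD0325901 and 0 and 5.30 FPKM with 4OHT, and it was listed at 0 in both 4OHT + PD0325901 libraries. With 24 h of TSA a few histone genes were higher. Of 51 loci, 6 were called higher and none lower, 11.8% against 19.3% of all genes called higher, and the median was 0.37 (all genes 0.10). Under quantile normalization 4 were higher and 4 lower and the median changed sign to -0.68, so no direction is given for the group.

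Hist2h2be, an H2B gene, read 0.431 and 0.538 FPKM in untreated cells and 2.27 and 2.12 FPKM with TSA (1.98, SE 0.29, adjusted p = 0.000888), on 15 and 17 implied fragments against 76 and 70, and it was one of the genes in which the exact stem-loop letters were not found. Hist3h2ba was listed at 0 in both untreated libraries and read 4.00 and 3.72 FPKM with TSA (adjusted p = 1.32e-05, and no fold is given), on 14 and 13 implied fragments. Hist1h2be, an H2B gene, read 1.504 and 0.34 against 5.54 and 6.03 FPKM (2.81, adjusted p = 0.00641). In these 3 genes the groups lay well apart, and the calls held in every alternative that could be run. Hist2h2be reached 1 FPKM only in the TSA libraries and read at most 0.601 FPKM in the others. It thus entered the test, and the count of 6, only through the group where it was high, so its call is not independent of the filter.

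Hist1h1a read 0.527 and 0 FPKM in untreated cells and 3.37 and 1.49 FPKM with TSA (3.23, SE 0.83, adjusted p = 0.0122). Like Hist2h2be, Hist1h1a passed the filter only through the TSA libraries, with at most 0.661 FPKM in the others, so its call carries the same limit. Hist2h3b, an H3 gene, read 0.241 and 0.266 against 1.24 and 1.48 FPKM (2.04, adjusted p = 0.0148), or 1 and 1 implied fragments against 5 and 6, and its call was lost without any 1 of the untreated or TSA libraries. The pair Hist2h2aa1 and Hist2h2aa2, which encode H2A, read 4.28 and 2.24 against 10.6 and 7.93 FPKM (1.54, adjusted p = 0.0179). The groups did not overlap in these either. The joined Hist1h1c locus read 24.1 and 22.6 against 49.4 and 33.0 FPKM, under 2-fold (0.79, adjusted p = 0.047). Hist1h2bc read 26.8 and 11.02 FPKM with TSA, on both sides of the untreated 12.1 and 11.99 FPKM. The count of 6 was 4 without untreated library 2 or TSA library 1 and 10 without untreated library 1 or without TSA library 2, and in the last case 1 of the 10 was lower. Of the other H1 genes, Hist1h1e read 1.60 and 0.679 against 3.91 and 1.64 FPKM with TSA, and Hist1h1d 0.872 and 0.412 against 2.30 and 0.383 FPKM, and neither was called.

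Other genes moved widely with TSA. Among markers of other cell types, Epcam read 28.1 and 29.2 FPKM with TSA against 0.839 and 1.09 FPKM in untreated cells and Cdh1 read 2.60 and 2.49 against 0.268 and 0.203 FPKM. The summed level of all 7 such markers was 32.4 and 33.9 FPKM against 2.17 and 2.75 FPKM, while the endothelial marker Cdh5 was listed at 0 in both TSA libraries and the blood cell marker Ptprc read 0.0873 and 0.131 FPKM. Of 18 S phase genes, 2 were called lower, Rrm1 with -2.01 (adjusted p = 0.000122) and Cdt1 with -1.32 (adjusted p = 5.04e-05), and the median of the list was -0.63. Their part in the histone values was not tested. Of 11 replacement histone genes 1 was called higher and 3 lower, of 10 chaperone genes 1 was called higher (Asf1b, 1.35) and 1 lower (Atrx, -1.11), and of 16 processing genes none was called.

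PD0325901 alone had 2 calls among 51 loci, both higher (3.92%, against 3.09% of all genes), and a median of -0.34 (all genes -0.07), which was 0.00 without untreated library 1, -0.77 without untreated library 2, -0.17 without PD0325901 library 2 and 0.20 with a filter of 5 FPKM. Hist1h2bf, an H2B gene, read 2.55 and 1.40 FPKM in untreated cells and 6.20 and 4.66 FPKM with PD0325901 (1.46, SE 0.39, adjusted p = 0.0454). Hist3h2ba read 0.286 and 0.292 FPKM against 2 values listed at 0 (adjusted p = 0.00602), which is 1 implied fragment in each PD0325901 library, and such a call says little about the level of the gene. The count was 0 without either untreated library, 1 without either TSA library and 3 (1 higher, 2 lower) without PD0325901 library 1. Without library 2, whose column name goes against its label, 1 locus was called higher and 1 lower, and the Hist1h2bf call was lost while that of Hist3h2ba was kept and the H2B gene Hist1h2bk was the one called lower.

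Treatment with 4OHT went with higher values of 5 of 51 loci at day 6 (9.8%, against 4.86% of all genes), with none lower. The comparisons of TSA, PD0325901 and 4OHT all share the 2 untreated libraries. The summed FPKM was 131.9 and 96.59 in untreated cells and 188.9 and 162.2 at day 6, and the median was 0.45 (all genes 0.00). Hist1h2bc read 12.1 and 11.99 FPKM in untreated cells and 31.3 and 35.6 FPKM at day 6 (1.46, SE 0.34, adjusted p = 0.0203). Hist1h4i read 10.6 and 10.4 against 32.2 and 21.0 FPKM (1.30, adjusted p = 0.0287), a direction it also had in the siRNA libraries. In neither gene did the groups overlap.

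Hist2h3b read 0.241 and 0.266 FPKM in untreated cells and 2.18 and 1.39 FPKM at day 6 (2.38, adjusted p = 0.0196), or 1 and 1 implied fragments against 9 and 5, and Hist1h2bf 2.55 and 1.40 against 5.75 and 4.40 FPKM (1.36, adjusted p = 0.0384). Hist3h2ba read 1.12 and 1.29 FPKM at day 6, with both untreated libraries listed at 0 (adjusted p = 0.000359), a call that held in all 18 alternatives. In contrast, the joined Hist1h1c locus read 14.4 and 13.1 FPKM, below the untreated 24.1 and 22.6 FPKM, and did not pass the test (-0.76, adjusted p = 0.0907). The count of 5 became 1 without untreated library 2, and 3 without untreated library 1 or either day 6 library, and 2 of the 3 were lower without day 6 library 1. The median turned to -0.09 without untreated library 2 and was 0.19 without day 6 library 1, 0.79 without untreated library 1 and 0.88 without day 6 library 2.

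With PD0325901 present, 4OHT also went with higher histone values. This comparison shares the PD0325901 libraries with the one of PD0325901 alone. The summed FPKM was 119.7 and 97.08 with PD0325901 and 307.2 and 219.3 with 4OHT + PD0325901. The median log2 fold change was 1.31 (all genes 0.09), and 49 of 51 loci lay above 0, as did 59.2% of all genes. Hist1h2bc read 23.3 and 21.9 against 67.7 and 61.9 FPKM (1.51, adjusted p = 0.0373), and Hist1h4i 9.34 and 4.95 against 35.4 and 24.7 FPKM (2.10, adjusted p = 0.0119). With Hist2h3b (0.247 and 0 against 2.42 and 1.61 FPKM, 3.48, adjusted p = 0.0118), the H4 pair Hist1h4m and Hist1h4n (0.775 and 0.939 against 9.91 and 4.48 FPKM, 2.83, adjusted p = 0.0339) and Hist3h2ba (0.286 and 0.292 against 1.40 and 2.48 FPKM, 2.34, adjusted p = 0.00507), 5 of 51 loci were called higher (9.8%, against 3.1% of all genes). None was called lower. With PD0325901 alone, Hist2h3b and Hist3h2ba rested on 0 or 1 implied fragment a library, so the size of their folds is not firm.

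**Figure D5:**
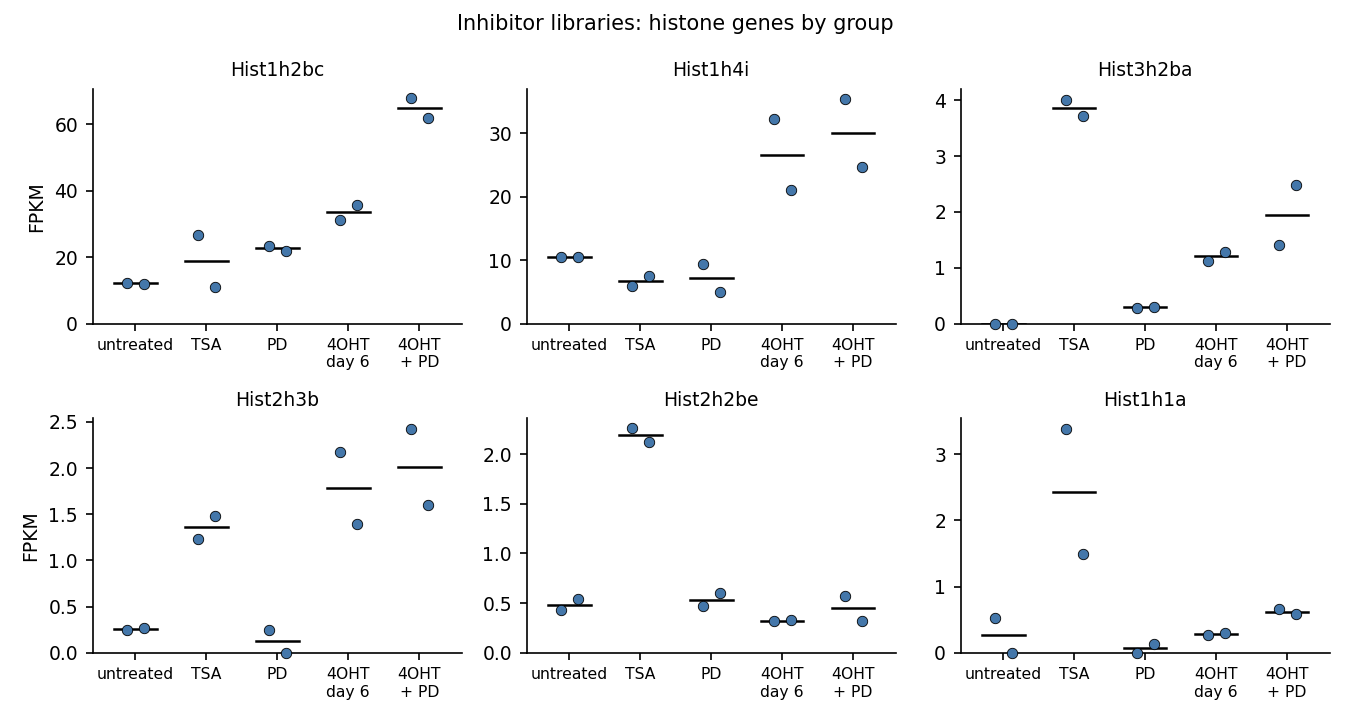
FPKM of 6 histone genes in each inhibitor library (PD, PD0325901), with a bar at the mean of the 2 libraries of a group. Hist1h2bc and Hist1h4i are highest in the 2 groups given 4OHT, Hist2h2be and Hist1h1a are highest with TSA, and Hist3h2ba is listed at 0 in both untreated libraries.

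That count was 2 without 4OHT + PD0325901 library 1 and 3 without either untreated library or PD0325901 library 2, whose column name goes against its label, and the median without the last was 1.17. Without PD0325901 library 2 the calls of Hist1h2bc, Hist1h4i and the pair Hist1h4m and Hist1h4n were lost, those of Hist2h3b and Hist3h2ba were kept, and the H2B gene Hist1h2bk was called higher in their place. With a pseudocount of 1 the median was 0.73. Between 4OHT + PD0325901 and 4OHT at day 6 limma called no locus (3.77% of all genes in either direction), 5 of 51 had an unadjusted p under 0.05 (22.6% of all genes), and 2 were called without 4OHT + PD0325901 library 2 and 1 without day 6 library 1. The interaction of 4OHT and PD0325901 had no call (0.725% of all genes), 5 loci with an unadjusted p under 0.05 (15.9% of all genes) and a median of 0.75 (from 0.40 without day 6 library 2 to 1.16 without 4OHT + PD0325901 library 2), and 1 call without PD0325901 library 2 or day 6 library 1. The 4OHT effect on histone genes was therefore not shown to differ with PD0325901.

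Of the companion genes under 4OHT at day 6, H1f0 read 149 and 153 FPKM in untreated cells and 48.7 and 50.1 FPKM at day 6 (-1.61, adjusted p = 0.000292), and the histone chaperone gene Daxx had 1.89 (adjusted p = 0.00159). With PD0325901 present, H1f0 had -0.47 (adjusted p = 0.0578) and Daxx 2.00 (adjusted p = 0.00261), and the interaction was called for H1f0 (1.14, adjusted p = 0.0404). None of 16 processing genes and none of 18 S phase genes was called in either comparison.

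Hist1h2bc can be set side by side under 4OHT in the 3 experiments. In total RNA at day 5, Hist1h2bc read 348, 338 and 345 FPKM in untreated cells and 259, 276 and 256 FPKM with 4OHT, all lower (-0.38, SE 0.04, adjusted p = 0.000201), while in the inhibitor libraries at day 6 it was higher in both. In the siRNA libraries it read 47.7 and 23.0 FPKM with 4OHT + siCtrl against 25.9 and 26.1 FPKM with siCtrl (0.35, adjusted p = 0.501), on both sides of the siCtrl values. Whether the effects differ was not tested, because the experiments differ in library type, day, depth and untreated cells at once, which cannot be told apart.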

How the data were processed

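Total RNA (9 libraries), siRNA (8) and inhibitor (10) tables were used. Reads were mapped by the authors with TopHat2 2.0.12 on mm9, and FPKM values per gene locus were then computed with Cufflinks on a RefSeq annotation and deposited. These FPKM values are normalized for length and depth, and reads or counts were not used. Loci were matched to genes by symbol, and in total RNA by position. Each experiment was fitted alone with limma 3.58.1 in R 4.3.3 (trended empirical Bayes, two-sided) on log2(FPKM + 0.1) over all genes with 1 FPKM or more in enough libraries, and p-values were adjusted by Benjamini-Hochberg over all genes tested. A gene was called at an adjusted p under 0.05 and a change of at least 2-fold. Fold changes on this scale understate those of low genes. Numbers of fragments were worked out from the deposited confidence intervals of FPKM and cover counting error only. The steps were tested on simulated data, where 178 of 200 genes changed by 1.5 (log2) were called in total RNA (4OHT day 5 against untreated), 119 of 200 in the siRNA libraries (siDnmt1 against siCtrl) and 131 of 200 in the inhibitor libraries (TSA against untreated). These genes were drawn from all genes tested. Their median replicate SD was 10.5% (siRNA) and 11.9% (inhibitor) of the mean, against 34.8% and 43.1% for histone loci. Recovery of histone loci was therefore not measured. Stem-loops were read from NCBIM37 with the GENCODE annotation by Python 3.11.15. Exact tests of single genes cannot go below p = 0.1 with 3 against 3 libraries, or 0.333 with 2 against 2. Whether groups overlapped is stated only to describe the values of named loci. It is not a further test of their calls, and the share of all genes without overlap is not given. The members and lists were chosen with earlier results of these data known. Named genes were the 5 highest loci of each experiment, all tested H1 genes, and in each comparison the called loci with the 3 highest and 3 lowest fold changes, with others of interest added after their values were seen. The alternatives tried were other pseudocounts, filters, scalings, loci, fold limits and samples, and a replicate block.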

Additional observations from a re-analysis of the deposited data

How the results depend on the processing

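Of 292 alternative settings over the 14 counts of called loci, 213 stayed within 1.5 times the reported count and 79 did not. The 36 named calls were kept in 467 of 642 alternatives, lost in 175 and reversed in 0, and of 2146 alternatives of 120 uncalled results 37 became called. Combining no fold limit with another scaling, and counting only loci of 1 gene with no value of 0, were chosen after seeing the data. Shares of all genes under the alternatives are not given, so the counts below show only how the calls depend on the settings. The cause of the changes was not tested.

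In total RNA, the counts at day 5, in long-term KO against untreated cells and in long-term KO against day 5 were 32, 17 and 33 with no fold limit, 32, 19 and 31 with median-ratio scaling as well, 17, 26 and 36 with quantile normalization as well, and 21, 13 and 24 over loci of 1 gene with no value of 0 and no fold limit. With no filter 1 locus was called at day 5, and taking the highest locus in place of the sum gave 5 against day 5.

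For siDnmt1 against siCtrl the count was 0 with a filter of 5 FPKM, 1 with a pseudocount of 1 or median-ratio scaling, and 7 with only the groups compared. For 4OHT + siCtrl it was 0 with a pseudocount of 1, median-ratio scaling, quantile normalization or only the groups compared. For 4OHT + siDnmt1 against siDnmt1 it was 3 with a filter of 5 FPKM and 5 with median-ratio scaling.

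For TSA it was 2 with a filter of 5 FPKM or over loci of 1 gene with no value of 0. For PD0325901 it was 0 with a pseudocount of 1 and 1 with no filter, a filter of 5 FPKM, quantile normalization, loci of 1 gene with no value of 0 or only the groups compared. For 4OHT at day 6 it was 3 with a filter of 5 FPKM or loci of 1 gene with no value of 0. For 4OHT + PD0325901 against PD0325901 it was 3 with no filter or quantile normalization and 2 over loci of 1 gene with no value of 0. Quantile or median-ratio scaling moved the median of all genes by over 0.1 for TSA (0.10 to -0.01 with quantile), for 4OHT + PD0325901 (0.09 to -0.03) and for its interaction (0.10 to -0.02). The interaction of 4OHT and PD0325901 had 1 call with a pseudocount of 0.01.

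Deviations of same-numbered libraries correlated at -0.034 to 0.128 in total RNA and -0.068 to 0.016 in siRNA libraries. Among PD0325901, 4OHT at day 6 and 4OHT + PD0325901 they correlated at 0.206 to 0.259, and at -0.025 to 0.038 in the other inhibitor pairs. The labels give no shared batch and an inhibitor comparison has 2 pairs, so the pairing was not used in the reported values. With a replicate block the counts were 1 for siDnmt1, 4 for 4OHT + siDnmt1 against siDnmt1, 8 for 4OHT at day 6 and 8 for 4OHT + PD0325901 against PD0325901.

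Leaving out 1 library at a time gave 0 to 0 calls at day 5, 3 to 4 in both long-term KO comparisons, 0 to 7 for siDnmt1, 0 to 2 for 4OHT + siCtrl, 0 to 16 for 4OHT + siDnmt1 against siDnmt1, 0 to 0 against 4OHT + siCtrl, 0 to 3 for the siRNA interaction, 4 to 10 for TSA, 0 to 3 for PD0325901, 1 to 7 for 4OHT at day 6, 2 to 6 for 4OHT + PD0325901 against PD0325901, 0 to 2 against 4OHT at day 6 and 0 to 1 for the inhibitor interaction. In pairs of libraries, the library left alone was assumed to vary like the other groups. Histone values rest on a median of 5 implied fragments per locus in the siRNA and 3 in the inhibitor libraries, which limits their precision.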
